A study of Mus musculus with 12 samples.

Results

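The genes described here are 35 mouse genes of sterol and fatty acid synthesis and of the SREBP and LXR systems that control them. They were chosen by symbol from the 33641 genes listed in 6 deposited tables, where each of the 35 had 1 row. The group holds 17 genes of cholesterol synthesis, 5 genes of the SREBP system, 8 of fatty acid synthesis, the 2 LXR receptors and 3 LXR targets. RNA had been sequenced from untreated peritoneal macrophages, which patrol the lining of the abdomen, at day 0. The libraries were 3 with both Samhd1 and Ifih1 knocked out (SAMHD1 MDA5 DKO), 3 with Samhd1 knocked out (SAMHD1 KO), 3 with Ifih1 knocked out (MDA5 KO) and 3 wild type (WT). SAMHD1 breaks down deoxynucleotides, and MDA5, the product of Ifih1, senses long double-stranded RNA in the cytosol. The labels name no strain, age, sex or promoter for the knockouts and leave unstated if replicate libraries were taken from different mice, so p-values measure only the spread between these libraries.

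SREBP transcription factors are made as membrane proteins of the endoplasmic reticulum, where SCAP escorts them and the INSIG proteins hold the pair back while sterols are plentiful. When sterols run low, SCAP carries SREBP to the Golgi, proteases free its active part, and genes of cholesterol synthesis (mainly through SREBP-2, from Srebf2) and of fatty acid synthesis (mainly through SREBP-1c, from Srebf1) are switched on. LXR receptors bind oxysterols, which form when cholesterol is plentiful, and switch on cholesterol export through ABCA1 and ABCG1, MYLIP, which marks lipoprotein receptors for degradation, and Srebf1 itself. In macrophages, which take up lipid from dying cells, both systems are known to be active and a rise in cellular cholesterol moves their sterol genes in opposite directions.

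The promoters of 6 of these genes are shown because both systems are known to act through short DNA elements near the start of their targets. The sequences are from RefSeq on GRCm38.p6, with the gene's own strand read 5′ to 3′, and end 1 base before the transcription start, except Insig1, whose last 49 bases lie in an annotated exon and are left out. Capitals mark, on either strand, the sterol regulatory element TCACNCCAC, the CCAAT box (CCAAT), the GC box (GGGCGG), the E-box (CACGTG) and the LXR element. The LXR element was taken as 2 copies of AGGTCA with 4 bases between them, with up to 3 mismatches. That number of mismatches was set after the sequences had been seen, since with the 2 first allowed only Dhcr7 among the members matched.
Hmgcs1 (chr13:119690101-119690350, plus strand): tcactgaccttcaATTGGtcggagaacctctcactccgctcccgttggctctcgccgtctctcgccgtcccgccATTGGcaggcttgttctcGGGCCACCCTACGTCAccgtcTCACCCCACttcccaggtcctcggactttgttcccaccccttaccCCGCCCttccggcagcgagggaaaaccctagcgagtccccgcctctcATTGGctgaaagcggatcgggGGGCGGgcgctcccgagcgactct
Mvd (chr8:122443423-122443672, minus strand): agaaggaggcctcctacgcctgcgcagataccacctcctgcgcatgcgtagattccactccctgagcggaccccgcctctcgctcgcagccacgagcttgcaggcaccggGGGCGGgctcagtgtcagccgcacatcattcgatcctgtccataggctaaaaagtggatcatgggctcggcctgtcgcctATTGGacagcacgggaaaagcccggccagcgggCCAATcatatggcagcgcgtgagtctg
Insig1 (chr5:28071162-28071362, plus strand): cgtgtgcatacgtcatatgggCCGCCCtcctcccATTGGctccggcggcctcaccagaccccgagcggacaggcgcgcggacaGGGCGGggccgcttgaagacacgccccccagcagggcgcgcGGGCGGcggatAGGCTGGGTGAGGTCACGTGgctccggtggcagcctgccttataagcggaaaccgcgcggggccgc
Srebf1, the start farthest downstream of 3 (chr11:60210472-60210721, minus strand): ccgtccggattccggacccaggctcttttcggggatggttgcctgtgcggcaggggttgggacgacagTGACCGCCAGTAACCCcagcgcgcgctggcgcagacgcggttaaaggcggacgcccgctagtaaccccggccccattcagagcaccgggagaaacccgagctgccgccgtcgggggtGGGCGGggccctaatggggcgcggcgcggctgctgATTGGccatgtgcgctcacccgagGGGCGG
Fasn (chr11:120824548-120824797, minus strand): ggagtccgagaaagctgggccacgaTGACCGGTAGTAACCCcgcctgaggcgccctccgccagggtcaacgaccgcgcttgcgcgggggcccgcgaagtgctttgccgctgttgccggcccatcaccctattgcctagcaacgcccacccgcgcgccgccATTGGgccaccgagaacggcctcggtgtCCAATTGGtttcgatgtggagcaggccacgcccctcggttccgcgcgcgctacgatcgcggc
Abca1 (chr4:53159896-53160145, minus strand): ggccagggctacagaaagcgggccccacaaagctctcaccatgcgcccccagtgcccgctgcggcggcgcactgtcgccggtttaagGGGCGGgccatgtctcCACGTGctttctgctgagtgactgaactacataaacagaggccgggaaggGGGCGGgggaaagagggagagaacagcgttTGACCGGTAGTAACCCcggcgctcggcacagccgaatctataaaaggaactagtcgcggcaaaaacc

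Of 27 members in the promoter table, only Hmgcs1 had an exact sterol regulatory element in these 250 bases. Such an element was held by 1.22% of all 27025 genes and by 1.05% of all 32851 promoters. Of the 13 sterol synthesis genes in the table, 12 had a CCAAT box and 12 a GC box before at least 1 of their starts, against 37.5% and 35.4% of all 27025 genes. Abca1 and Fasn held the same 16 bases at their LXR element, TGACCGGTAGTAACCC, which begin 67 bases before the start of Abca1 and 225 before that of Fasn. No other promoter in the table held those 16 bases on either strand. The LXR element of Srebf1, at 182 bases, read TGACCGCCAGTAACCC. Of the Srebf1 starts the one printed held the most motif matches, and the others had at least 4 mismatches to the LXR element. Hmgcs1 was printed for its sterol regulatory element. An LXR element with up to 3 mismatches was present in 18.5% of all promoters, and a CCAAT box and a GC box in 33.8% and 32.7%, so a match describes the sequence and no more. An E-box was present in 6.02% of all promoters, and in Insig1 it overlaps the end of the LXR element, so the capitals run on. The last CCAAT boxes of Fasn overlap in the same way, on opposite strands. Msmo1, the sterol gene with the smallest p below, is not printed because nearly all of its window lies in an annotated exon.

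**Figure D1:**
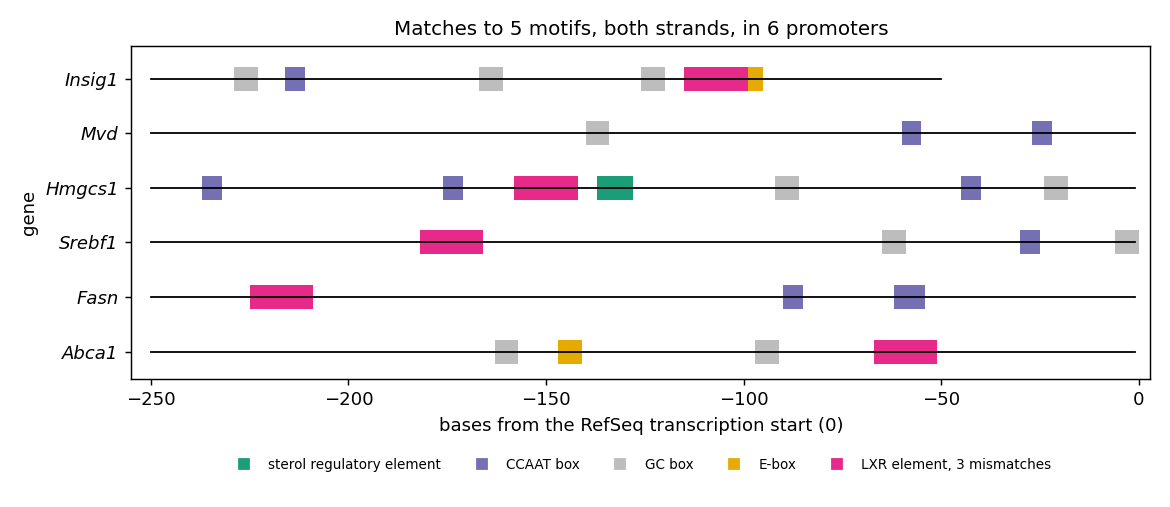
Matches to 5 motifs on either strand in the 6 promoters printed above, by distance in bases from the RefSeq start. Abca1 has its LXR element at 67 bases and Fasn at 225, Hmgcs1 alone has a sterol regulatory element, and the Insig1 line stops at 50 bases.

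Recovered reads per library ran from 33234361 to 58345425. Ifih1 had at most 41.9 normalised reads in the 6 libraries with Ifih1 knocked out, against at least 816 in the other 6, and Samhd1 had at most 4960.3 in the 6 with Samhd1 knocked out, against at least 7067. Library WT 3 stood apart from the other 11, with 22320.5 normalised reads of Apoe against 664817 to 1400847, and with the highest proliferation marker sum (16627 against 9689.8 or less). WT 2 held the most mast cell, B cell and T cell marker reads. SAMHD1 KO 2 and 3 differed from each other far less than other pairs of 1 genotype (chi-square per gene 6.99 against 55.0 to 839, where counting error alone gives about 1), although by more than counting error. All 10 peritoneal macrophage markers passed the filter on low values. In WT 3 their mean log2 value was 14.90, against 15.28 to 15.51 in the other 11 libraries. One of them, Lyz2, had 215984 normalised reads in WT 3 and 1457330 to 4930207 in the other 11. Of 8 adipocyte markers 4 passed, and Adipoq and Lep were at 0 in 11 of 12 libraries, with 7.49 and 32.5 normalised reads in MDA5 KO 2. The summed adipocyte markers, nearly all of it Fabp4, a fatty acid binding protein also made by macrophages, came to 9651 to 12887 in SAMHD1 MDA5 DKO, 15926 to 29141 in SAMHD1 KO, 10832 to 12475 in MDA5 KO and 19460.4 to 51893 in WT, the WT maximum being WT 3. Their part in the results below was not tested. WT 3, SAMHD1 KO 2 and SAMHD1 MDA5 DKO 3 form a set whose mean difference from the other 9 libraries the authors' columns had removed, and no MDA5 KO library is in it. With that set as a term in the fit to the recovered reads, members were counted at an unadjusted p under 0.05. In SAMHD1 KO minus WT 8 were lower, in SAMHD1 MDA5 DKO minus SAMHD1 KO 7 higher and in SAMHD1 KO minus MDA5 KO 9 lower. Without the set as a term these counts were 8, 8 and 10. The share of all genes with the set as a term is not given here. In bulk RNA, fewer cells of a type and less RNA per cell cannot be told apart.

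Per kilobase of transcript, the members spanned a wide range of levels. Acly, which makes the acetyl-CoA that both pathways start from, averaged 11035 normalised reads per kilobase over the 12 libraries and was the highest. Insig1, Nr1h2, Abca1 and Mylip followed at 1089.5, 927, 919 and 858. The sterol synthesis genes were lower, with Mvd the highest at 331 and Fdps the lowest at 9.49. Fads2, a fatty acid desaturase, was the only member that failed the filter, with 0 reads in 8 libraries and at most 5.14 normalised reads in any, so 34 members were tested. Fdps shares 1124 of 4208 exon bases with an annotated gene on the same strand, Tm7sf2 shares 532 of 4403 with Vps51 on the same strand, and Fdft1 shares 774 of 4227 with Ctsb on the other strand. Scd1 and Scd2 belong to a family of 4 similar genes. How the authors' counting treated such reads is not given in the sources used here, so the values of these genes are less certain.

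Sterol and fatty acid synthesis genes were mostly lower in SAMHD1 KO than in WT and mostly higher in SAMHD1 MDA5 DKO than in SAMHD1 KO, while LXR targets showed no common direction between SAMHD1 KO and WT. No single member passed the test at an adjusted p under 0.05 in any of the 6 pairwise comparisons or in the interaction (limma, Benjamini-Hochberg over 15130 genes). Few genes of any kind did. The share called among all genes was 0% in SAMHD1 KO minus WT, 0.0132% in SAMHD1 MDA5 DKO minus SAMHD1 KO, 0.00661% in MDA5 KO minus WT, 0% in SAMHD1 MDA5 DKO minus MDA5 KO, 0.00661% in SAMHD1 MDA5 DKO minus WT, 0.00661% in SAMHD1 KO minus MDA5 KO and 0% in the interaction. Plain voom also called 0 members. With library quality weights, voom called 6 members (17.6%, all genes 14.1%) in SAMHD1 KO minus WT, 16 (47.1%, all genes 41.1%) in SAMHD1 MDA5 DKO minus SAMHD1 KO and 20 (58.8%, all genes 38.7%) in SAMHD1 KO minus MDA5 KO. Whether genes are called thus depends on how much weight each library gets, for members and other genes alike. The differences below are therefore described with their standard errors, and members are counted at an unadjusted p under 0.05. In the main fit each count of members is read against the share of all genes that met the same rule. Counts with a library left out come without that share, so they show only how far the count of members depends on single libraries.

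Between SAMHD1 KO and WT, 27 of 34 members were lower in SAMHD1 KO and 7 higher. Their median log2 difference was -0.45, against 0.03 over all genes tested. At an unadjusted p under 0.05, 8 members (23.5%) were lower and 0 higher, in a comparison where 5.57% of all genes were lower and 9.87% higher by that rule. The 8 were the sterol genes Mvk, Mvd, Idi1, Fdft1, Sqle and Msmo1 and the fatty acid genes Scd2 and Fasn. In 4 members, Mvd, Idi1, Msmo1 and Scd2, all SAMHD1 KO libraries lay below all WT libraries, which 7.85% of all genes did. The count lower at an unadjusted p under 0.05 was 2 without SAMHD1 KO 2, 4 without SAMHD1 KO 3, WT 1 or WT 3, and 13 without SAMHD1 KO 1 or WT 2, with 25 to 27 of 34 members lower each time. The share of all genes in those fits is not given here. Other marker groups differed between the same libraries. Of 8 proliferation markers, 7 were lower in SAMHD1 KO, 3 of them by that rule (37.5%), with a median of -1.49. Their summed normalised reads in libraries 1, 2 and 3 were 1229.8, 4739 and 4839.7 in SAMHD1 KO and 3999, 4073 and 16627 in WT (WT 3 the highest). By these sums SAMHD1 KO 2 and 3 lay above WT 1 and 2, and only SAMHD1 KO 1 lay below all WT libraries. In 2 single markers, Mcm2 and Mcm5, all SAMHD1 KO libraries lay below all WT libraries. All 4 haemoglobin genes were higher in SAMHD1 KO, with sums of 372 to 585 in SAMHD1 KO and 12.1 to 518 in WT (WT 3 again the highest). The part of either in the lipid gene differences was not tested.

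Between SAMHD1 MDA5 DKO and SAMHD1 KO, 25 members were higher in SAMHD1 MDA5 DKO and 9 lower, with a median of 0.37 against 0.02 over all genes. Those higher at an unadjusted p under 0.05 numbered 8 (23.5%), where 3.52% of all genes were, and they were Fdps, Sqle, Hsd17b7, Stard4, Srebf1, Srebf2, Scd2 and Fasn. Only Nr1h3 was lower by that rule, which 5.29% of all genes met. In 9 members all SAMHD1 MDA5 DKO libraries lay above all SAMHD1 KO libraries, against 9.14% of all genes. The count higher at an unadjusted p under 0.05 was 0 without SAMHD1 MDA5 DKO 3 or without SAMHD1 KO 2, 2 without SAMHD1 KO 3, 5 without SAMHD1 MDA5 DKO 2 or MDA5 KO 3 and 12 without SAMHD1 KO 1, though 25 to 28 of 34 stayed higher in the mean. The share of all genes in those fits is again not given. Scaling by total reads gave 29 higher and 5 lower. This comparison shares its 3 SAMHD1 KO libraries with SAMHD1 KO minus WT, so a low SAMHD1 KO library enters both. All 4 haemoglobin genes were lower in SAMHD1 MDA5 DKO at an unadjusted p under 0.05 and did not overlap (median -5.46), with sums of 0 to 84.9 in SAMHD1 MDA5 DKO and 372 to 585 in SAMHD1 KO. Of 8 proliferation markers 7 were higher (median 0.63, sums 3142 to 6889 in SAMHD1 MDA5 DKO and 1229.8 to 4839.7 in SAMHD1 KO), and all 6 mast cell markers were lower (sums 9.69 to 214 in SAMHD1 MDA5 DKO and 179.6 to 1422 in SAMHD1 KO). Their part in the lipid gene differences was not tested.

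SAMHD1 KO also lay below MDA5 KO, with 28 members lower and 6 higher and a median of -0.44 against -0.01 over all genes. The SAMHD1 KO libraries are the same as in the comparisons with WT and with SAMHD1 MDA5 DKO, so this is not separate support. At an unadjusted p under 0.05, 10 were lower (all genes 4.89%) and 1, Nr1h3, was higher (all genes 4.64%). The lower ones were Sqle, Hsd17b7, Dhcr7, Stard4, Srebf1, Srebf2, Fads1, Scd1, Scd2 and Fasn. In 5 members, Fads1, Scd1, Scd2, Abca1 and Abcg1, all SAMHD1 KO libraries lay below all MDA5 KO libraries, against 8.74% of all genes. The count lower at an unadjusted p under 0.05 was 2 without MDA5 KO 2 and 3 without SAMHD1 KO 2. Without SAMHD1 KO 3 or MDA5 KO 3 it was 4. The share of all genes in those fits is not given here either. All 8 proliferation markers were lower in SAMHD1 KO, 4 by that rule and 5 without overlap (median -1.40, sums 1229.8 to 4839.7 in SAMHD1 KO and 7246 to 9689.8 in MDA5 KO). All 4 haemoglobin genes were higher without overlap, 3 of them by that rule (median 4.03, sums 372 to 585 in SAMHD1 KO and 19.98 to 102 in MDA5 KO). Here too their part was not tested.

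The other pairwise comparisons showed no common direction. MDA5 KO minus WT had 17 members higher and 17 lower, with Abca1 higher and Msmo1 and Insig2 lower at an unadjusted p under 0.05, where 12.3% of all genes were higher and 10.1% lower. SAMHD1 MDA5 DKO minus MDA5 KO had 13 higher and 21 lower and none at that p in either direction (with total reads as the scaling, 18 higher and 16 lower), where 0.364% of all genes were higher and 0.654% lower. SAMHD1 MDA5 DKO minus WT had 16 higher and 18 lower, with Mvd, Msmo1 and Insig2 lower at that p and none higher, against 12.8% of all genes lower and 15% higher. In the interaction, which asks whether losing MDA5 had a different effect with and without SAMHD1, 26 members had a positive and 8 a negative value (median 0.31 against -0.05 over all genes). Msmo1 was higher and Abca1 lower at an unadjusted p under 0.05, against 0.859% of all genes higher and 2.35% lower.

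**Figure D2:**
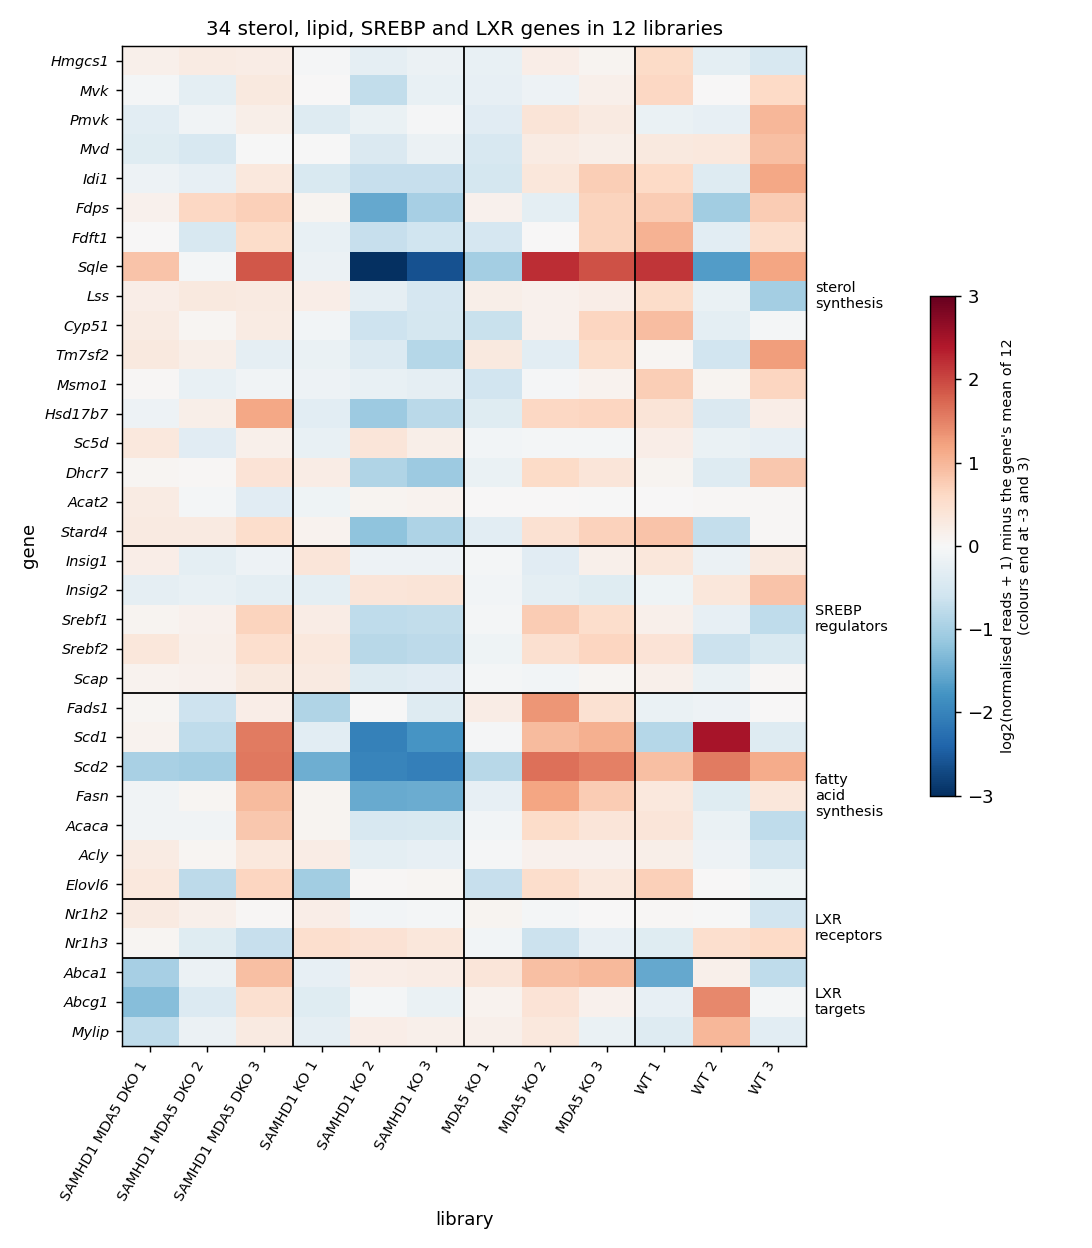
log2(normalised reads + 1) of the 34 tested members minus each gene's mean over 12 libraries (colour), by gene and library, with genotypes separated by lines. SAMHD1 KO 2 and 3 are blue in most sterol and fatty acid rows, and MDA5 KO 2 and 3 and SAMHD1 MDA5 DKO 3 are red in the fatty acid rows Scd1, Scd2 and Fasn.

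In sterol synthesis, 14 of 17 genes were lower in SAMHD1 KO than in WT, with a median log2 difference of -0.73. Squalene epoxidase, Sqle (chromosome 15, 59315077 to 59331192 on GRCm38), a rate-controlling enzyme of the pathway, varied most. In normalised reads, its libraries 1, 2 and 3 held 147, 76.7 and 295 in SAMHD1 MDA5 DKO, 71.5, 2.3 and 12.2 in SAMHD1 KO, then 39.3, 375 and 303 in MDA5 KO, against 358, 24.7 and 184 in WT. The highest SAMHD1 KO library lay inside the WT range, and WT 2 lay far below the other WT libraries. The log2 difference was -3.02 ± 1.21 for SAMHD1 KO minus WT (adjusted p = 0.315 by limma) and 3.36 ± 1.21 for SAMHD1 MDA5 DKO minus SAMHD1 KO (adjusted p = 0.562), where all SAMHD1 MDA5 DKO libraries lay above all SAMHD1 KO libraries. Leaving out 1 library at a time moved the first of these from -4.17 to -1.95, the values without SAMHD1 KO 1 and without SAMHD1 KO 2.

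Msmo1 (chromosome 8, 64718139 to 64733792), the C4-methylsterol oxidase that works on lanosterol's products, had the smallest unadjusted p of the sterol genes. It gave normalised reads of 1037, 877 and 954 in SAMHD1 MDA5 DKO, 915, 873 and 839 in SAMHD1 KO, then 687, 993 and 1089 in MDA5 KO, against 1702, 1079.5 and 1586 in WT. All SAMHD1 KO and all SAMHD1 MDA5 DKO libraries lay below all WT libraries, and 2 of 3 MDA5 KO libraries did. Its log2 difference was -0.71 ± 0.22 in SAMHD1 KO minus WT (adjusted p = 0.312, limma), -0.66 ± 0.22 in MDA5 KO minus WT and -0.58 ± 0.22 in SAMHD1 MDA5 DKO minus WT. These comparisons share the 3 WT libraries. Mvd (chromosome 8, 122433601 to 122443422), which makes isopentenyl diphosphate, was similar, at 459.7, 425 and 589 in SAMHD1 MDA5 DKO, 590.4, 436 and 521 in SAMHD1 KO, then 424, 699 and 672 in MDA5 KO, against 724, 733 and 1108 in WT. Its log2 difference was -0.71 ± 0.26 in SAMHD1 KO minus WT, -0.52 ± 0.26 in MDA5 KO minus WT and -0.78 ± 0.26 in SAMHD1 MDA5 DKO minus WT (adjusted p = 0.127, limma). Every knockout library lay below every WT library. WT 3 was the highest of the 12, and without it the last of these differences was -0.58.

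Idi1 (chromosome 13, 8885501 to 8892451), the isomerase that follows, gave 162, 154 and 228 in SAMHD1 MDA5 DKO, 132, 111 and 112 in SAMHD1 KO, then 127, 231 and 302 in MDA5 KO, against 275, 139 and 404 in WT, and all SAMHD1 KO libraries lay below all WT libraries (log2 difference -1.07 ± 0.41). Mvk (chromosome 5, 114444269 to 114460591), mevalonate kinase, gave 307, 262 and 394 in SAMHD1 MDA5 DKO, 325, 192 and 276 in SAMHD1 KO, then 273, 289.7 and 358 in MDA5 KO, against 498, 321 and 490.5 in WT, with SAMHD1 KO 1 just above the lowest WT library (log2 difference -0.73 ± 0.28). Hsd17b7 (chromosome 1, 169949535 to 169969241), a ketoreductase of the late pathway, gave 136, 170.1 and 339 in SAMHD1 MDA5 DKO, 121, 70.0 and 85.6 in SAMHD1 KO, then 118, 235 and 237 in MDA5 KO, against 197, 112 and 174 in WT. Its SAMHD1 MDA5 DKO libraries all lay above its SAMHD1 KO libraries (log2 difference 1.14 ± 0.41), and without SAMHD1 MDA5 DKO 3 that difference was 0.75. Fdft1, squalene synthase, differed by -0.92 ± 0.40 in SAMHD1 KO minus WT, and Dhcr7, the reductase of a last step, by -0.76 ± 0.37. Tm7sf2, a sterol C14 reductase, Stard4, a cytosolic sterol carrier, and Cyp51, lanosterol demethylase, differed by -0.74 ± 0.44, -0.73 ± 0.42 and -0.60 ± 0.36. Pmvk, phosphomevalonate kinase, Hmgcs1, HMG-CoA synthase, and Lss, lanosterol synthase, were nearer to 0, at -0.39 ± 0.34, -0.08 ± 0.25 and 0.02 ± 0.33. The 11 sterol genes without values by library ran from -0.98 ± 0.59 (Fdps, farnesyl diphosphate synthase) to 0.18 ± 0.22 (Sc5d, sterol C5-desaturase) in SAMHD1 KO minus WT. Acat2, which makes acetoacetyl-CoA, hardly varied, at 284 to 431 reads over the 12 libraries.

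In fatty acid synthesis, 6 of 7 tested genes were lower in SAMHD1 KO than in WT (median -0.51), all 7 were lower in SAMHD1 KO than in MDA5 KO (median -1.11), and all 7 were higher in SAMHD1 MDA5 DKO than in SAMHD1 KO (median 0.49). Scd2 (chromosome 19, 44293676 to 44306864), a stearoyl-CoA desaturase that puts the double bond into saturated fatty acids, had the smallest p of all members between SAMHD1 KO and WT. It gave 209, 202 and 1229 in SAMHD1 MDA5 DKO, 149.7, 104 and 99.04 in SAMHD1 KO, then 232, 1299 and 1187 in MDA5 KO, against 767, 1223 and 897 in WT. The 3 SAMHD1 KO libraries were the lowest 3 of the 12, and in MDA5 KO and SAMHD1 MDA5 DKO libraries lay on both sides of a wide gap. In SAMHD1 KO the mean was 8.1-fold below WT on the log2(value + 1) scale (log2 difference -3.02 ± 0.71, adjusted p = 0.312, limma). It stayed at -3.20 to -2.83 with any 1 library left out. SAMHD1 MDA5 DKO minus SAMHD1 KO was 1.68 ± 0.71 and was 0.82 without SAMHD1 MDA5 DKO 3.

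Scd1 (chromosome 19, 44394451 to 44407709), the sister desaturase, gave 119, 65.2 and 328 in SAMHD1 MDA5 DKO, 89.0, 26.4 and 31.8 in SAMHD1 KO, then 109, 216 and 234 in MDA5 KO, against 60.4, 625 and 85.1 in WT, with WT 2 alone far above the other WT libraries. Its SAMHD1 KO libraries all lay below its MDA5 KO libraries (log2 difference -2.04 ± 0.83). Fasn (chromosome 11, 120805846 to 120824547), fatty acid synthase, gave 2448, 2719.8 and 5087 in SAMHD1 MDA5 DKO, 2783, 919 and 935 in SAMHD1 KO, then 2194, 5958 and 4418 in MDA5 KO, against 3268, 2023 and 3317 in WT. SAMHD1 KO 2 and 3 were lower than every other library, while SAMHD1 KO 1 lay inside the WT range (SAMHD1 KO minus WT -1.06 ± 0.47, SAMHD1 KO minus MDA5 KO -1.53 ± 0.47). Fads1 (chromosome 19, 10182888 to 10196870), a desaturase of polyunsaturated fatty acids, gave 116, 72.3 and 129 in SAMHD1 MDA5 DKO, 59.0, 110.2 and 85.6 in SAMHD1 KO, then 131, 282 and 153 in MDA5 KO, against 96.7, 99.6 and 112 in WT, and its 3 MDA5 KO libraries were the highest of the 12 (SAMHD1 KO minus MDA5 KO -1.11 ± 0.37). Acly, Acaca (acetyl-CoA carboxylase) and Elovl6 (a fatty acid elongase) differed by 0.07 ± 0.22, -0.08 ± 0.32 and -0.51 ± 0.47 in SAMHD1 KO minus WT.

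**Figure D3:**
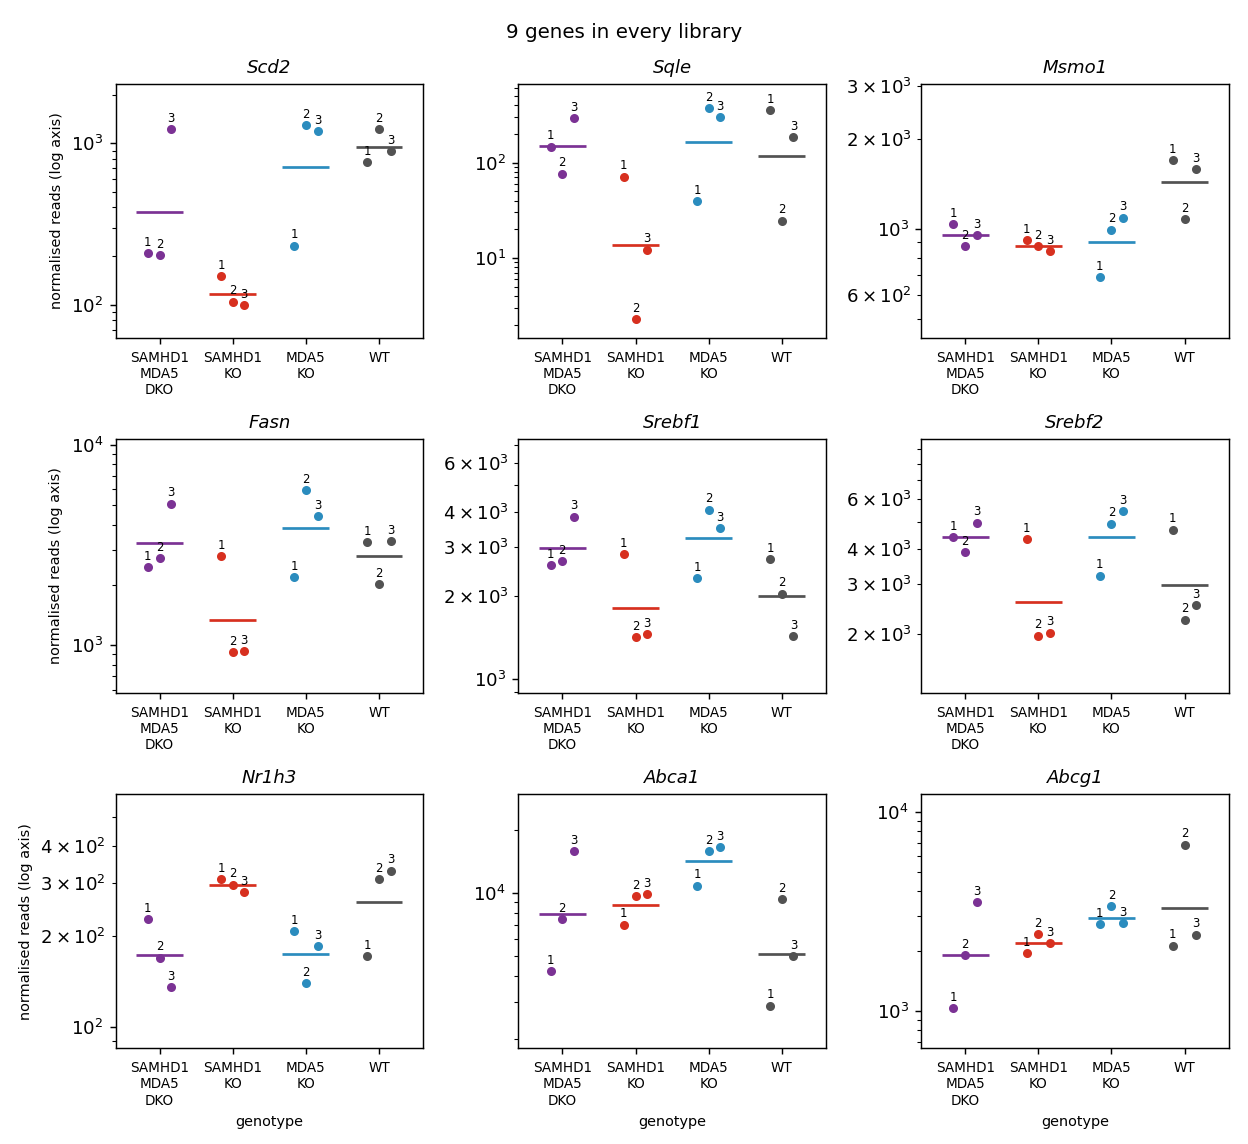
Normalised reads of 9 members in every library on log axes. Points are libraries with their number, lines are means on the log2(value + 1) scale, and genotypes run from SAMHD1 MDA5 DKO to WT. For Scd2 the 3 SAMHD1 KO libraries lie lowest, and MDA5 KO and SAMHD1 MDA5 DKO each split into high and low libraries.

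All 5 SREBP genes had a lower mean in SAMHD1 KO than in WT, with a median log2 difference of -0.15 and none at an unadjusted p under 0.05. Srebf2 (chromosome 15, 82147266 to 82205376), which encodes SREBP-2, gave 4419, 3895 and 4959 in SAMHD1 MDA5 DKO, 4349, 1981 and 2029.8 in SAMHD1 KO, then 3224, 4915 and 5444 in MDA5 KO, against 4685, 2256 and 2535 in WT. Srebf1 (chromosome 11, 60199089 to 60222581), which encodes SREBP-1a and SREBP-1c, gave 2579, 2662 and 3859 in SAMHD1 MDA5 DKO, 2819.6, 1423 and 1459 in SAMHD1 KO, then 2322, 4089.96 and 3505 in MDA5 KO, against 2702, 2037 and 1432 in WT. SAMHD1 KO 2 and 3 were the lowest of the 12 for Srebf2, and for Srebf1 only WT 3 came between them. SAMHD1 KO 1 lay inside the WT range for Srebf2 and above it for Srebf1. SAMHD1 KO minus WT was -0.21 ± 0.35 for Srebf2 and -0.14 ± 0.33 for Srebf1. SAMHD1 MDA5 DKO minus SAMHD1 KO was 0.76 ± 0.35 for Srebf2 (adjusted p = 0.562, limma) and 0.73 ± 0.33 for Srebf1 (adjusted p = 0.562).

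Scap (chromosome 9, 110333288 to 110384950), the escort protein, gave 1718, 1727 and 1929 in SAMHD1 MDA5 DKO, 1907, 1218 and 1263 in SAMHD1 KO, then 1533, 1507 and 1643 in MDA5 KO, against 1765, 1389 and 1621 in WT, with all SAMHD1 MDA5 DKO libraries above all MDA5 KO libraries. Its 6 pairwise log2 differences lay between -0.15 and 0.32. Insig1 (chromosome 5, 28071363 to 28078662), a retention protein and itself an SREBP target, gave 3805, 2717 and 3005 in SAMHD1 MDA5 DKO, 4242, 3013 and 2981 in SAMHD1 KO, then 3183, 2634 and 3707 in MDA5 KO, against 4214, 2936 and 4001 in WT. No genotype lay apart from another in any pair, with a SAMHD1 KO minus WT difference of -0.13 ± 0.23. Insig2 (chromosome 1, 121304353 to 121332589), the other retention protein, gave 713, 734 and 695 in SAMHD1 MDA5 DKO, 696, 1104 and 1127 in SAMHD1 KO, then 812, 702 and 669 in MDA5 KO, against 785, 1088 and 1547 in WT. Its SAMHD1 MDA5 DKO libraries all lay below its WT libraries (log2 difference -0.62 ± 0.26, adjusted p = 0.156, limma), and without WT 3, the highest library, the difference was -0.37.

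Of the LXR receptors, Nr1h2 (chromosome 7, 44549616 to 44553951), LXR beta, gave 3736, 3406 and 3142 in SAMHD1 MDA5 DKO, 3525, 2923 and 2966 in SAMHD1 KO, then 3281, 2952 and 3114 in MDA5 KO, against 3169, 3037 and 2067 in WT, and no genotype lay apart from another in any pair. Nr1h3 (chromosome 2, 91184061 to 91202834), LXR alpha, gave 228, 170.1 and 136 in SAMHD1 MDA5 DKO, 311, 297 and 280.01 in SAMHD1 KO, then 208, 139.9 and 185 in MDA5 KO, against 172, 310.2 and 331 in WT. All SAMHD1 KO libraries lay above all SAMHD1 MDA5 DKO and all MDA5 KO libraries, and inside the WT range. The log2 difference was -0.76 ± 0.31 for SAMHD1 MDA5 DKO minus SAMHD1 KO and 0.75 ± 0.31 for SAMHD1 KO minus MDA5 KO (adjusted p = 0.562 and 0.503, limma). In both comparisons its sign was opposite to that of Sqle, Hsd17b7, Stard4, Scd2, Fasn, Srebf1 and Srebf2. Those genes were picked for an unadjusted p under 0.05 in both. Among the SREBP genes, Insig1 (-0.10 and 0.10) and Insig2 (-0.42 and 0.39) had the sign of Nr1h3. Both comparisons use the same SAMHD1 KO libraries.

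Among the LXR targets, Abca1 (chromosome 4, 53030787 to 53159895), which exports cholesterol to apolipoprotein A-I, gave 4219.9, 7473 and 15781 in SAMHD1 MDA5 DKO, 7052, 9666 and 9864 in SAMHD1 KO, then 10824, 15744 and 16465 in MDA5 KO, against 2896, 9289.5 and 4989.98 in WT. All MDA5 KO libraries lay above all SAMHD1 KO and all WT libraries, and WT 1 was the lowest of the 12. MDA5 KO minus WT was 1.46 ± 0.46 (adjusted p = 0.196, limma), a 2.75-fold difference, and stayed at 1.05 to 1.90 with any 1 library left out. SAMHD1 KO minus WT was 0.77 ± 0.46 and the interaction -1.61 ± 0.65 (adjusted p = 0.894). Without SAMHD1 MDA5 DKO 1, the lowest library of its genotype, the interaction was -1.15.

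Abcg1 (chromosome 17, 31057698 to 31115777), which exports cholesterol to high-density lipoprotein, gave 1039, 1912 and 3531 in SAMHD1 MDA5 DKO, 1957, 2436 and 2203 in SAMHD1 KO, then 2732, 3376 and 2774 in MDA5 KO, against 2134, 6843 and 2421 in WT. WT 2 was the highest of the 12 and lay far above the other WT libraries, and the same library was highest for Mylip. Mylip (chromosome 13, 45389742 to 45412019), the ligase for lipoprotein receptors, gave 1470.5, 2224 and 3027 in SAMHD1 MDA5 DKO, 2080.4, 2887 and 2807 in SAMHD1 KO, then 2785, 3129.6 and 2167 in MDA5 KO, against 1928, 5018 and 2019 in WT. MDA5 KO minus WT was -0.16 ± 0.45 for Abcg1 and -0.02 ± 0.36 for Mylip, each smaller than its standard error. SAMHD1 MDA5 DKO minus MDA5 KO was negative for all 3 targets, at -0.83 ± 0.46 for Abca1, -0.62 ± 0.45 for Abcg1 and -0.31 ± 0.36 for Mylip, with overlapping groups each time. WT 2 was also the library with the most mast cell marker reads (12215 against 1422 or less) and B cell marker reads (4737 against 348 or less), and their part in its LXR target levels was not tested.

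**Figure D4:**
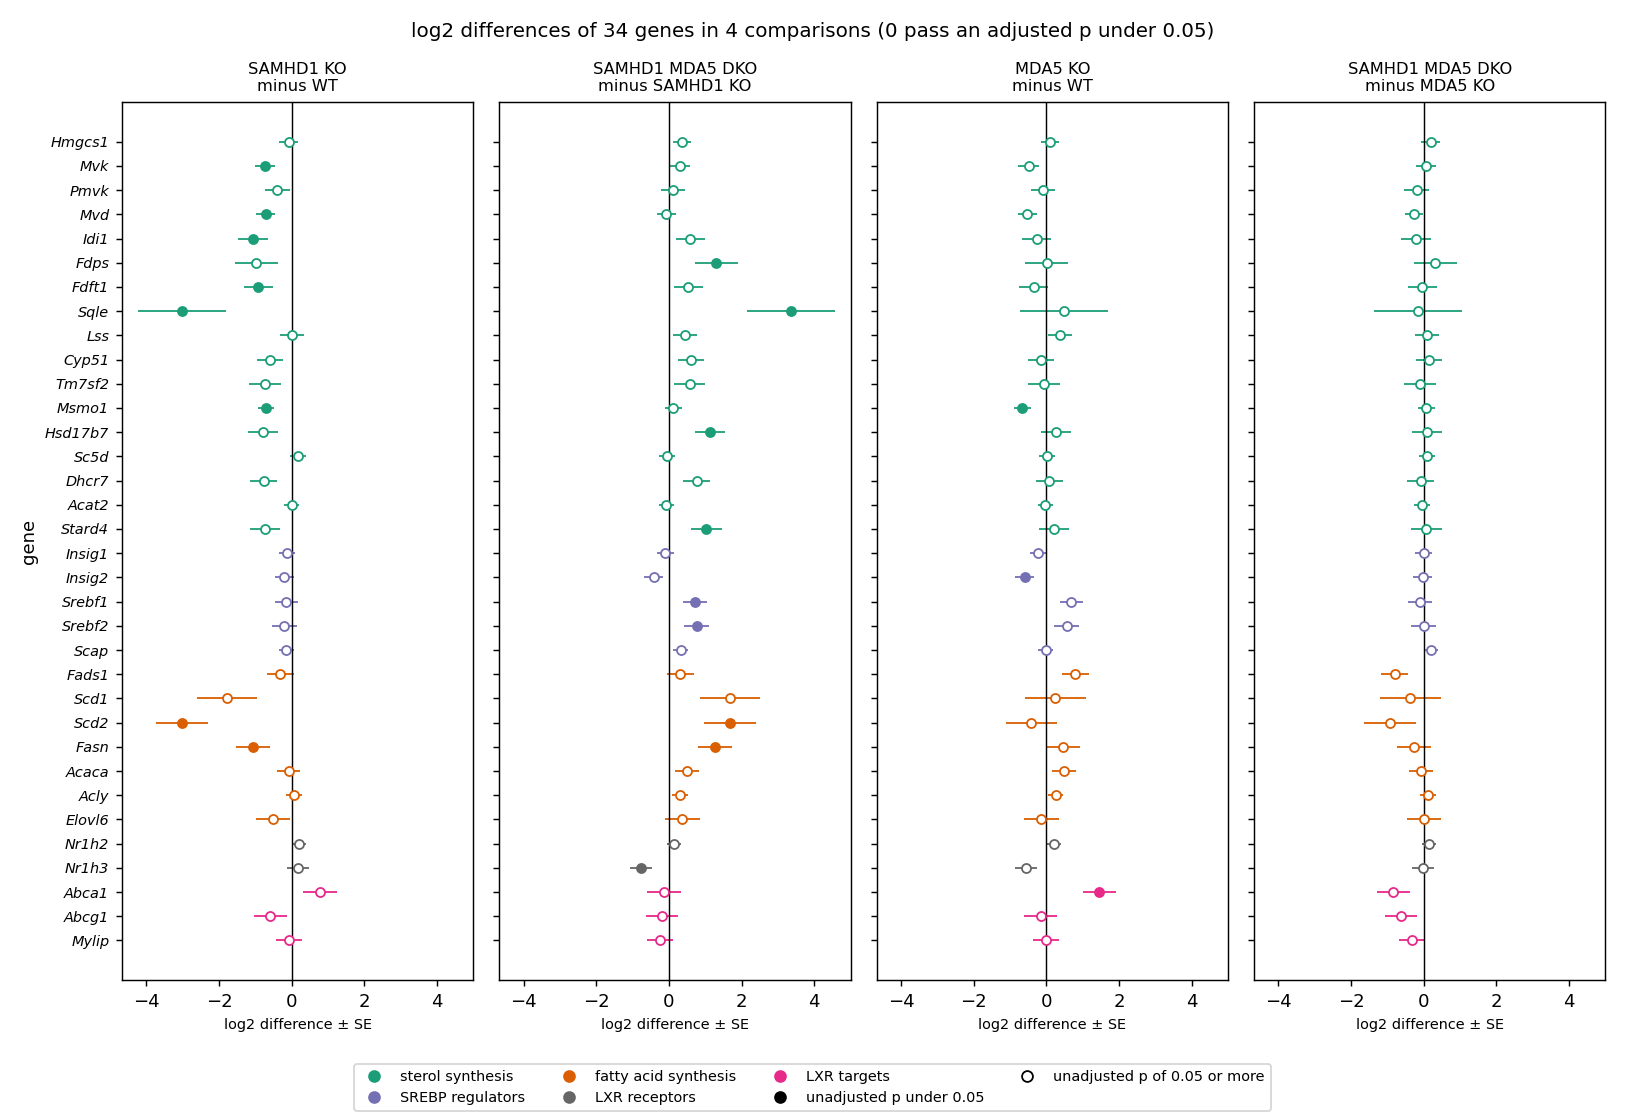
log2 differences with their standard errors for the 34 tested members in 4 comparisons, coloured by gene group and filled where the unadjusted p is under 0.05. Panels that name the same genotype share its libraries, and 0 members pass an adjusted p under 0.05.

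Whether the sterol synthesis genes and the LXR targets moved in opposite directions was asked from their medians. In SAMHD1 KO minus WT the medians were -0.73 for sterol synthesis and -0.07 for LXR targets, and in SAMHD1 KO minus MDA5 KO -0.45 and -0.43, so both had the same sign. They had opposite signs in SAMHD1 MDA5 DKO minus SAMHD1 KO (0.53 and -0.19), as well as in SAMHD1 MDA5 DKO minus MDA5 KO (0.05 and -0.62). In that comparison, as in MDA5 KO minus WT (-0.02 and -0.02) and SAMHD1 MDA5 DKO minus WT (-0.0016 and -0.33), the sterol median was near 0, so its sign says little. Over the 26 alternatives, the number of comparisons with opposite signs ran from 0 (without SAMHD1 MDA5 DKO 1) to 5 (without WT 2), and with array quality weights MDA5 KO minus WT became opposite, at 0.55 and -0.95. SAMHD1 MDA5 DKO minus SAMHD1 KO was opposite in 26 of 27 fits, all but the one without SAMHD1 MDA5 DKO 1, and SAMHD1 KO minus MDA5 KO in 0 of 27. The fits reuse the same libraries, so their number is not separate support. A median over 3 LXR targets rests on few genes. In SAMHD1 MDA5 DKO minus SAMHD1 KO these were -0.14 ± 0.46 for Abca1, -0.19 ± 0.45 for Abcg1 and -0.26 ± 0.36 for Mylip. Each was smaller than its standard error, so the sign of that LXR median says little. The LXR median of -0.07 in SAMHD1 KO minus WT was near 0 too.

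Library by library, the mean log2 value of the 17 sterol genes was 8.42, 8.29 and 8.68 in SAMHD1 MDA5 DKO, 8.21, 7.52 and 7.71 in SAMHD1 KO, next to 8.03, 8.58 and 8.77 in MDA5 KO, against 8.88, 7.94 and 8.74 in WT. WT 2 was below SAMHD1 KO 1, so the groups overlapped. The mean of the 3 LXR targets was 10.86, 11.63 and 12.43 in SAMHD1 MDA5 DKO, 11.58, 11.995 and 11.94 in SAMHD1 KO, next to 12.09, 12.43 and 12.18 in MDA5 KO, against 11.16, 12.74 and 11.50 in WT. In 6 of 12 libraries the 2 means lay on opposite sides of their medians over the 12, and in 6 on the same side. WT 2 was below the median for sterol genes and highest of the 12 for LXR targets, while SAMHD1 MDA5 DKO 3 and MDA5 KO 2 and 3 were above the median for both. The fatty acid genes averaged 10.08 ± 0.68 in SAMHD1 MDA5 DKO, 9.21 ± 0.24 in SAMHD1 KO, 10.41 ± 0.60 in MDA5 KO, against 10.17 ± 0.25 in WT (SD, n = 3 each). All 3 SAMHD1 KO libraries lay below the other 9, but SAMHD1 KO 1 (9.49) only just below SAMHD1 MDA5 DKO 2 (9.51). The genes behind this mean differed widely in SAMHD1 KO minus WT, from -3.02 for Scd2 to 0.07 for Acly.

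**Figure D5:**
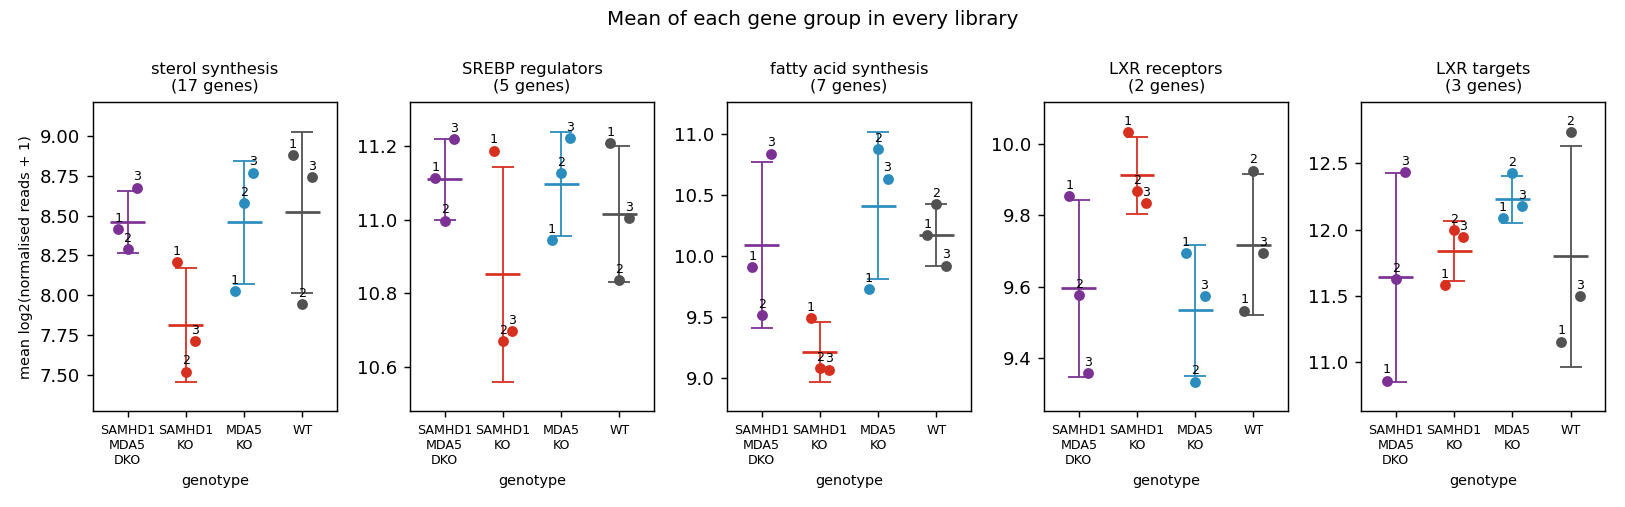
Mean log2(normalised reads + 1) of each gene group in every library, numbered within genotype, with the genotype mean and SD (n = 3). SAMHD1 KO libraries lie below the other 9 in fatty acid synthesis, where SAMHD1 KO 1 (9.49) nearly meets SAMHD1 MDA5 DKO 2 (9.51). In the other 4 groups they overlap WT.

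Further genes of the same pathways were taken from 4 lists. Of 15 tested genes among 19 further sterol genes, 11 were lower in SAMHD1 KO than in WT (median -0.18), 2 of them at an unadjusted p under 0.05 and none higher by that rule (13.3% lower, against 5.57% of all genes). Npc2, which hands cholesterol out of the lysosome, gave 40118, 37648 and 34076 in SAMHD1 MDA5 DKO, 45842, 66739 and 65491 in SAMHD1 KO, then 37316, 34138 and 39785 in MDA5 KO, against 52756, 57544 and 63954 in WT. All SAMHD1 MDA5 DKO and MDA5 KO libraries lay below all SAMHD1 KO and WT libraries, and SAMHD1 KO minus MDA5 KO was 0.66 ± 0.19.

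Of 13 other LXR targets and cofactors, 7 were higher and 6 lower in SAMHD1 KO than in WT, none at an unadjusted p under 0.05 (median 0.01). Smpdl3a, a phosphodiesterase known as an LXR target, gave 49542, 40730.2 and 46822 in SAMHD1 MDA5 DKO, 54319.7, 75428 and 74092 in SAMHD1 KO, then 51376, 44446 and 51271 in MDA5 KO, against 64475, 71225 and 120270.4 in WT, and all SAMHD1 MDA5 DKO and all MDA5 KO libraries lay below all WT libraries (log2 differences -0.85 ± 0.24 and -0.75 ± 0.24). WT 3 was the highest of the 12.

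Of 15 tested genes among 18 others of fatty acid metabolism, 11 were lower in SAMHD1 KO than in WT, 3 of them at an unadjusted p under 0.05 and 1 higher (median -0.31), against 5.57% of all genes lower and 9.87% higher. Mlxipl, the carbohydrate response factor ChREBP, gave 11381, 5165 and 8052 in SAMHD1 MDA5 DKO, 6187, 3939 and 3476 in SAMHD1 KO, then 7855, 6149 and 5076 in MDA5 KO, against 3797, 4371 and 1957 in WT, and SAMHD1 MDA5 DKO minus WT was 1.29 ± 0.36 (adjusted p = 0.127, limma). Hsd17b12, a reductase of fatty acid elongation, gave 3175, 3006 and 3880.3 in SAMHD1 MDA5 DKO, 3195, 2692 and 2547 in SAMHD1 KO, then 2816, 3886 and 4482 in MDA5 KO, against 4636, 3584 and 8346 in WT, and SAMHD1 KO minus WT was -0.89 ± 0.29. Every Mlxipl library of SAMHD1 MDA5 DKO lay above every WT library, and every Hsd17b12 library of SAMHD1 KO lay below every WT library.

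Of 8 tested oxysterol and sterol ester enzymes among 9, 6 were higher in SAMHD1 KO than in WT, 2 of them at an unadjusted p under 0.05, against 9.87% of all genes (median 0.21). Hsd3b7, which works on oxysterols in bile acid synthesis, gave 109, 73.1 and 29.3 in SAMHD1 MDA5 DKO, 44.1, 32.1 and 42.8 in SAMHD1 KO, then 65.0, 38.7 and 30.3 in MDA5 KO, against 17.7, 10.3 and 9.46 in WT. Soat2, which esterifies cholesterol, gave 240.3, 293 and 118 in SAMHD1 MDA5 DKO, 174, 180.2 and 111 in SAMHD1 KO, then 259, 69.9 and 143 in MDA5 KO, against 53.0, 34.9 and 70.3 in WT. For both genes all SAMHD1 KO and all SAMHD1 MDA5 DKO libraries lay above all WT libraries, as did all MDA5 KO libraries for Hsd3b7. SAMHD1 KO minus WT was 1.63 ± 0.53 for Hsd3b7 and 1.56 ± 0.49 for Soat2, and SAMHD1 MDA5 DKO minus WT 2.27 ± 0.53 and 1.98 ± 0.49 (adjusted p = 0.127 for both, limma). Ch25h, the interferon-induced enzyme that makes 25-hydroxycholesterol, was at 0 in 8 libraries, reached 17.5 normalised reads in MDA5 KO 2 and failed the filter.

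The authors' deposited tables hold their own fold changes, which are shrunken towards 0 and adjusted in another way. At their adjusted p under 0.05, the authors' deposited table of SAMHD1 KO minus WT listed Scd2 (log2 fold -2.61 ± 0.30, adjusted p = 5.47e-14) and Scd1 (-1.43 ± 0.42, adjusted p = 0.0485) as lower, where 0.191% of its genes were lower. The authors' deposited table of SAMHD1 MDA5 DKO minus SAMHD1 KO listed Scd2 as higher (1.35 ± 0.32, adjusted p = 0.00429), as were 0.352% of its genes. In the authors' deposited table of MDA5 KO minus SAMHD1 KO, Scd2 (1.81 ± 0.30, adjusted p = 1.75e-06) and Sqle (1.27 ± 0.31, adjusted p = 0.0133) were higher in MDA5 KO, as were 0.321% of its genes. The authors' deposited table of SAMHD1 MDA5 DKO minus MDA5 KO had Abca1 (-0.83 ± 0.18, adjusted p = 0.00169) and Abcg1 (-0.64 ± 0.18, adjusted p = 0.0314) lower, as were 0.0413% of its genes. Among the 35, the authors' deposited table of SAMHD1 MDA5 DKO minus WT had Mvd lower (-0.73 ± 0.23, adjusted p = 0.0191), in a table where 3.86% of genes were lower, so 1 of 35 is no more than the background. For MDA5 KO minus WT the authors' deposited table called 0 of the 35 and 2.17% of all its genes.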

How the data were processed

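Total RNA of 12 libraries had been sequenced, 3 for each of 4 genotypes. The authors' library columns hold deposited log2 values on a variance-stabilised scale, with the mean difference between 2 sets of libraries removed gene by gene (WT 3, SAMHD1 KO 2 and SAMHD1 MDA5 DKO 3 against the other 9). The deposited mean column is a normalised signal, and the authors' deposited log2 fold changes, p-values and adjusted p-values come with it. Per the submitters' processing notes, DESeq2, STAR and Salmon with R 4.1.2 and the builds GRCm38 and mm10 were used. Undoing the scale gave whole reads for all 33641 genes within 0.05 reads, before the set difference was removed. The values are those reads divided by median-of-ratios size factors. Reads per library are the only depth known, and no genes of chromosomes X, Y or the mitochondrion were in the tables. limma 3.58.1 in R 4.3.3, with a variance trend and robust moderation, was fitted to log2(normalised reads + 1) of all 12 libraries with genotype as the only term. Genes needed 10 reads' worth in the median library, 0.227731 CPM, in at least 3 libraries. P-values were adjusted by Benjamini-Hochberg over 15130 genes with a threshold of 0.05. Fold changes are on the log2(value + 1) scale, which understates the change of low genes. The members and all gene lists were chosen with earlier results of these data known. Values in every library are given for regulators, receptors and LXR targets, and for the 6 sterol and 4 fatty acid genes, and 2 of each further list, with the smallest unadjusted p in any pairwise comparison. Of these, 2 genes of the further lists are not reported here. The fit and the recovery were tested on simulated data. The alternatives were other pseudocounts, filters, scalings and weights, the set or a replicate block as a term, 2 genotypes at a time, the deposited columns, and leaving out each library. The count models DESeq2 and edgeR were not run here.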

Additional observations from a re-analysis of the deposited data

How the results depend on the processing

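No member was called in the 7 comparisons with another pseudocount, filter or scaling, plain voom, the set of libraries as a term, no variance trend, or 2 genotypes at a time (which gives no interaction). With voom and library quality weights the members called were 6 in SAMHD1 KO minus WT (17.6% of members against 14.1% of all genes), 16 in SAMHD1 MDA5 DKO minus SAMHD1 KO (47.1% against 41.1%), 1 in SAMHD1 MDA5 DKO minus WT (2.94%, with 1767 of 15130 genes called) and 20 in SAMHD1 KO minus MDA5 KO (58.8% against 38.7%). The sterol synthesis median was then -0.87 in SAMHD1 KO minus MDA5 KO. With array quality weights, whose estimation stopped before it converged, the members called were 11 in SAMHD1 KO minus WT (32.4% of members against 45.1% of all genes), 20 in SAMHD1 MDA5 DKO minus SAMHD1 KO (58.8% against 44.9%), 15 in MDA5 KO minus WT (44.1% against 29%), 14 in SAMHD1 MDA5 DKO minus WT (41.2% against 38.1%) and 21 in SAMHD1 KO minus MDA5 KO (61.8% against 44.4%). Those weights gave LXR target medians of -0.71 in SAMHD1 KO minus WT, -0.95 in MDA5 KO minus WT, -1.17 in SAMHD1 MDA5 DKO minus WT and 0.49 in the interaction. Their sterol synthesis medians were 0.55 in MDA5 KO minus WT, -0.90 in SAMHD1 KO minus MDA5 KO and 0.16 in the interaction. The cause of these shifts was not tested. On the deposited log2 columns, 1 member was called in SAMHD1 KO minus WT and 1 in SAMHD1 MDA5 DKO minus WT. Leaving out 1 library gave 0 to 1 members called. These were 1 in SAMHD1 MDA5 DKO minus WT without WT 1 and 1 in SAMHD1 KO minus MDA5 KO without SAMHD1 KO 1. The shares of all genes called on the deposited columns and with 1 library left out are not given here. Whether these calls exceed the background therefore cannot be told. Deviations of libraries with the same number correlated at -0.057 to 0.337, with 8 of 18 pairs over 0.1. The labels do not say if the number marks a pairing, and these values do not decide whether some libraries pair in part. With the replicate block 0 members were called in every comparison, as in the main fit, so that count does not decide it either. Of the 36 member differences at an unadjusted p under 0.05, 0 changed sign under any alternative. That says little, since they were picked for lying far from 0 for their error. Of the 12 fits with 1 library left out, between 0 and 7 took such a difference to a p over 0.05. It was 0 for Scd2 in SAMHD1 KO minus WT and 7 for Srebf2 in SAMHD1 MDA5 DKO minus SAMHD1 KO. The 3 libraries per genotype, the closeness of SAMHD1 KO 2 and 3 and the distance of WT 3 limit what these comparisons can show, and Sqle, Scd1 and Scd2 carry the widest errors.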
